A study of Mus musculus with 16 samples.

Results

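The genes described here are 10 members of the insulin-like growth factor (IGF) pathway and of the IMP family of RNA-binding proteins: Igf1, Igf2, Igf1r, Irs1, Irs2, Igfbp4, Igfbp5, Igf2bp1, Igf2bp2 and Igf2bp3. They were picked by name from 21632 genes in a RefSeq annotation of GRCm38.p6, which is the mm10 assembly. For each antibody, overlapping or touching peaks from its 4 libraries were joined. A merged region was given to a member when it overlapped the gene body, or when it lay within 50 kb and the member was the nearest protein-coding gene. This gave the members 83 of 59960 H3K27ac regions and 31 of 24264 MyoD regions.

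The study used cultured satellite cells (muscle stem cells) taken from the hindlimb of C57BL/6 mice. ChIP-seq was made with antibodies against H3K27ac, an acetylated histone residue found at active regulatory DNA, and against MyoD, a muscle-determining transcription factor that binds E-box motifs. Each antibody had 2 control and 2 LncMyoD-KD libraries, called knockdown here. LncMyoD is a long noncoding RNA, and cells were exposed to siRNA for 48 h. The protocol label names the siRNA target in the same words for control samples too, so "control" rests on the title and the genotype label. The sources used here do not give what control cells received, the age of the mice or whether replicates came from different mice or dishes, and their spread may therefore be technical. The 8 input libraries were not analysed here. These libraries hold no RNA measurement, and LncMyoD depletion was not checked.

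IGF1 and IGF2 are secreted ligands that activate the receptor tyrosine kinase encoded by Igf1r, which phosphorylates the adaptors IRS1 and IRS2 and so engages PI3K and Akt. IGF binding proteins hold the ligands outside the cell, and in muscle the pathway is known for driving growth and for acting in myoblast proliferation and differentiation. The IMP proteins, encoded by Igf2bp1, Igf2bp2 and Igf2bp3, bind Igf2 and other messenger RNAs and affect their stability and translation, and LncMyoD has been described as a partner of IMP2, the Igf2bp2 product.

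The H3K27ac lists held 46259 (control 1), 53048 (control 2), 54082 (knockdown 1) and 39964 peaks (knockdown 2). In the same order, MyoD gave 17818, 17649, 16524 and 13146 peaks. Knockdown 2 had the shortest list for both antibodies, and the read depth is unknown. H3K27ac regions of all 4 libraries were found at 8 of 8 muscle, 4 of 6 fibro-adipogenic, 3 of 5 endothelial, 2 of 5 immune, 3 of 5 smooth muscle and pericyte and 2 of 4 Schwann cell marker genes, beside 54.6% of all protein-coding genes. MyoD regions of all 4 libraries were found at 7, 2, 5, 1, 2 and 2 of these genes in the same order, beside 23% of all, so neither antibody was limited to the muscle markers. The part of such cells in the results below was not tested.

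The promoters of the members split into acetylated and unmarked ones. RefSeq start sites were matched for 9 of the 10 members, with 12 windows running from 250 bases before to 50 bases after the start. No window entry was matched for Igf2bp1. A merged H3K27ac region of all 4 libraries covered 4 of the 12 windows (33.3%), those of Igf1, Igf1r, Irs1 and Irs2, beside 32.3% of 32619 windows of all genes. At Igf1 the knockdown 2 peak in this region ended at −0.649 kb from the start and did not reach the window. A MyoD region of all 4 libraries covered 0 of the 12, beside 2.91% of all windows. The 250 bases before the start are given 5′ to 3′ on the gene's strand, from RefSeq GRCm38.p6, for the 4 acetylated promoters and, as the contrast, for Igf2bp2, whose promoter held no H3K27ac peak in any library. Capitals mark every E-box, CANNTG, read on both strands.
Igf1 chr10:87860861-87861110, plus strand: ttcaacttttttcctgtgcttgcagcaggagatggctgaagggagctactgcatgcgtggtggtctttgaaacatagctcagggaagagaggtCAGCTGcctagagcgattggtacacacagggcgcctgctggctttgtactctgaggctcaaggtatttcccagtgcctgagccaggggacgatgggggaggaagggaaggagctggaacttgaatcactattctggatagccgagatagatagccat
Igf1r chr7:67952007-67952256, plus strand: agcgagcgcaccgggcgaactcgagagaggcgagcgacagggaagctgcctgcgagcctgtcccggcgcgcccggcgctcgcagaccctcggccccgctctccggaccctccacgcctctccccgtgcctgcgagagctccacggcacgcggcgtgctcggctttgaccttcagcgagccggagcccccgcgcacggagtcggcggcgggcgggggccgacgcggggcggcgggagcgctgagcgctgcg
Irs1 chr1:82291440-82291689, minus strand: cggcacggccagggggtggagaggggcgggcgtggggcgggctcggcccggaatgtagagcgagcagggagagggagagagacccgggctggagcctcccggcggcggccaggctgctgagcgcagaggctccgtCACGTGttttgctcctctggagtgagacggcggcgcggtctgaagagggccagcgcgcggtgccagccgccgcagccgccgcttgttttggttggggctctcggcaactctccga
Irs2 chr8:11008930-11009179, minus strand: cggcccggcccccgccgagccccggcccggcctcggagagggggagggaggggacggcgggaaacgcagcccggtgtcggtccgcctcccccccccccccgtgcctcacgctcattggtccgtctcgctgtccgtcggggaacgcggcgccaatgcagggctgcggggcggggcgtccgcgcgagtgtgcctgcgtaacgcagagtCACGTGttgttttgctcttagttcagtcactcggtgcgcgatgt
Igf2bp2 chr16:22163300-22163549, minus strand: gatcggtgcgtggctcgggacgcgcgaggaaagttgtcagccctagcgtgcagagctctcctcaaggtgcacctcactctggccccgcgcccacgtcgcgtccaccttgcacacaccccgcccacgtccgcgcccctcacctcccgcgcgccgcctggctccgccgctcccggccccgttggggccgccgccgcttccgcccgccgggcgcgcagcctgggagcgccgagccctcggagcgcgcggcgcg

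The Igf1 window held CAGCTG, a form of E-box favoured by MyoD, with its first base 157 bases before the start. Of all 32619 windows, 16.4% held CAGCTG and 72.3% held any CANNTG. Irs1 and Irs2 each held CACGTG, 115 and 44 bases before the start. Igf2bp3 held it 23 bases before its start and again 5 bases after it. CACGTG, which reads the same on both strands and was added after the sequences had been seen, was in 3 of the 12 windows and in 7.2% of all windows. CAGGTG or its complement CACCTG was in 0 of the 12 and in 20.3% of all windows. Each of these motifs is a form of CANNTG, which was in 8 of the 12, and a match is a description of letters, not a bound site. Neither Igf1r nor Igf2bp2 held an E-box, and both were rich in CpG, with 48 and 47 CpG in 300 bases against a median of 7 over all windows. Igf1 had 6. Of 474 windows with at least as many CpG as Igf2bp2, 324 (68.4%) overlapped an H3K27ac region of all 4 libraries.

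**Figure D1:**
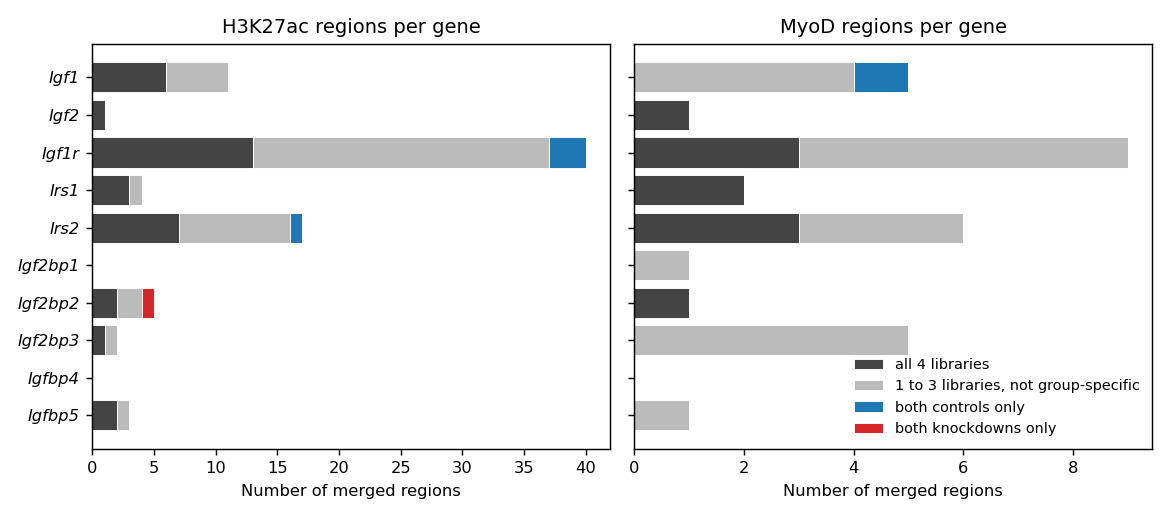
Number of merged H3K27ac regions (left) and MyoD regions (right) of each gene, split by the libraries that held a peak: all 4, both controls only, both knockdowns only, or any other set of 1 to 3. Igf1r had 40 H3K27ac regions and Igf1 had 5 MyoD regions, of which 0 were in all 4 libraries.

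The members' regions of all 4 libraries had higher median folds than those in other sets of libraries, as they did over all regions. At least 1 H3K27ac region was assigned to 8 of the 10 members and at least 1 MyoD region to 9, beside 64.4% and 40.7% of protein-coding genes. A region of all 4 libraries was present at 8 members for H3K27ac and at 5 for MyoD, beside 54.6% and 23% of protein-coding genes. Of the 83 H3K27ac regions, 35 (42.2%) had a peak in all 4 libraries, beside 43.6% of all H3K27ac regions. Of the rest, 4 regions (4.82%) were control-only, meaning a peak in both controls and in neither knockdown, beside 1.46% of all regions, and 1 (1.20%) was knockdown-only, the reverse, beside 0.769%. Of the 31 MyoD regions, 10 (32.3%) were in all 4 libraries, beside 40.8% of all MyoD regions. One was control-only (3.23%), beside 4.55% of all, and 0 were knockdown-only, beside 0.729%. The 35 H3K27ac regions of all 4 libraries had a median fold, averaged over libraries, of 8.57 (7.56 over all such regions). The 43 in other sets of libraries had 3.46 (3.47 over all such regions). For MyoD the 10 shared regions had 8.90 (8.36 over all such regions) and the 20 in other sets 5.16 (5.03 over all such regions). With 2 libraries against 2, the smallest two-sided exact permutation p is 0.33, so no test between the groups was made. Without control 1, 26 H3K27ac regions would be control-only, and without control 2, 8. Knockdown-only H3K27ac regions would number 8 without knockdown 2, 2 without control 1 and 3 without control 2. Leaving out any 1 library gave 4 or 5 control-only MyoD regions, and leaving out either control gave 1 knockdown-only MyoD region.

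The members' remaining regions were spread unevenly over the libraries. For H3K27ac, 30 of the 83 regions came from 1 library: 3 from control 1, 20 from control 2, 7 from knockdown 1 and 0 from knockdown 2. Over all 19937 such regions the shares were 13.1, 36.5, 47.7 and 2.76% in this order. The 20 regions of control 2 had folds of 2.96 to 4.14, and 6 of them had the narrowest width in that list, 182 bp. For MyoD, 7 of the 31 regions came from 1 library, 4 from control 1 and 3 from control 2, beside shares of 31.2, 31.8, 24.7 and 12.3% for control 1, control 2, knockdown 1 and knockdown 2 over all such regions. Of 9 MyoD regions in 3 libraries, 1 lacked control 1, 1 control 2, 3 knockdown 1 and 4 knockdown 2, beside 9.73, 9.96, 19.7 and 60.6% of all 3393 such regions. Members' MyoD regions with a peak numbered 24 and 25 in the controls (77.4 and 80.6% of 31) against 19 and 16 in the knockdowns (61.3 and 51.6%). The groups did not overlap in this count. Nor did they in the whole lists, with 17724 and 17558 peaks used in the controls against 16440 and 13069. The share of all MyoD regions with a peak in each library was not computed, so the count is not read as particular to the members. Fold enrichments below are the authors' own values at the summit of the highest peak, belong to their own list and were not tested between libraries.

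The order of the folds between the groups ran in both directions. Of the 35 H3K27ac regions of all 4 libraries, 2 had both control folds above both knockdown folds, beside 9.31% of all such regions, and 7 had both knockdown folds above both control folds, beside 14.1%. The 2 were at Igf2 and Igf1r, and the 7 at Igf1, Igf1r, Igfbp5, Irs1 and, with 3 regions, Irs2. Of the 10 MyoD regions of all 4 libraries, 3 had both controls higher, at Igf1r, Igf2 and Irs2, beside 21.1% of all such regions, and 0 had both knockdowns higher, beside 10.4%. In the other regions the groups overlapped.

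Igf1, on chr10:87858265-87937047, encodes the ligand made by muscle and liver. Its H3K27ac was found in both groups. Of its 5 MyoD regions, 3 were each in 1 control library alone and 1 was control-only. The strongest was in both controls and knockdown 1. Igf1 had 11 H3K27ac regions, with 6 shared by all 4 libraries and none specific to a group. The region at the start, chr10:87858345-87861284, had folds of 6.51 and 8.29 in the controls against 7.64 and 6.50 in the knockdowns, so the groups overlapped. It also overlapped the noncoding gene Igf1os. In knockdown 2 its peak ended at −0.649 kb from the start, while the peaks of the other libraries reached it. The strongest region, chr10:87925916-87928210, lay 64.8 kb downstream of the start, inside the gene, with folds of 11.5, 11.8, 12.4 and 10.8 in control 1, control 2, knockdown 1 and knockdown 2, which also overlapped. At 42.9 kb both knockdowns were higher, with 5.58 and 6.21 in the controls against 6.73 and 6.50.

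MyoD had 5 regions at Igf1, of which 4 had a peak in control 1, 3 in control 2, 1 in knockdown 1 and 0 in knockdown 2. The region at chr10:87927342-87927637, 66.2 kb downstream of the start, was control-only, with folds of 6.28 and 5.63, and lay inside the strongest H3K27ac region, which was present in all 4 libraries. The highest values were at chr10:87889911-87890281, 28.8 kb downstream, with 6.28, 6.29 and 8.59 in control 1, control 2 and knockdown 1 and no peak in knockdown 2. Close to the start, control 1 alone had a peak at −0.297 kb (upstream, fold 4.63) and control 2 alone one at −1.83 kb (5.30). Both lay inside the annotated gene body, which begins at −2.846 kb from the start used here. The fifth region, 83.4 kb downstream and outside the gene, was in control 1 alone (4.30). No Igf1 MyoD region was thus shared by all 4 libraries, and 4 of the 5 lay within H3K27ac of all 4 libraries. Over all genes, 989 had at least 5 MyoD regions, and 26 of these (2.63%) had none in all 4 libraries. The member Igf2bp3, with 5 MyoD regions and peaks in both groups, also had 0 in all 4 libraries. With at least 3 MyoD regions holding a peak in each control and at most 1 in each knockdown, 5 of the 989 genes (0.506%) met the pattern. They were Arhgap23, Ephb1, Igf1, Ptprt and Slc16a10. These limits, the minimum of 5 regions included, were set after the counts of Igf1 were seen, so Igf1 met them by construction. The shares therefore do not measure how unusual Igf1 was. The reverse pattern is not given here.

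**Figure D2:**
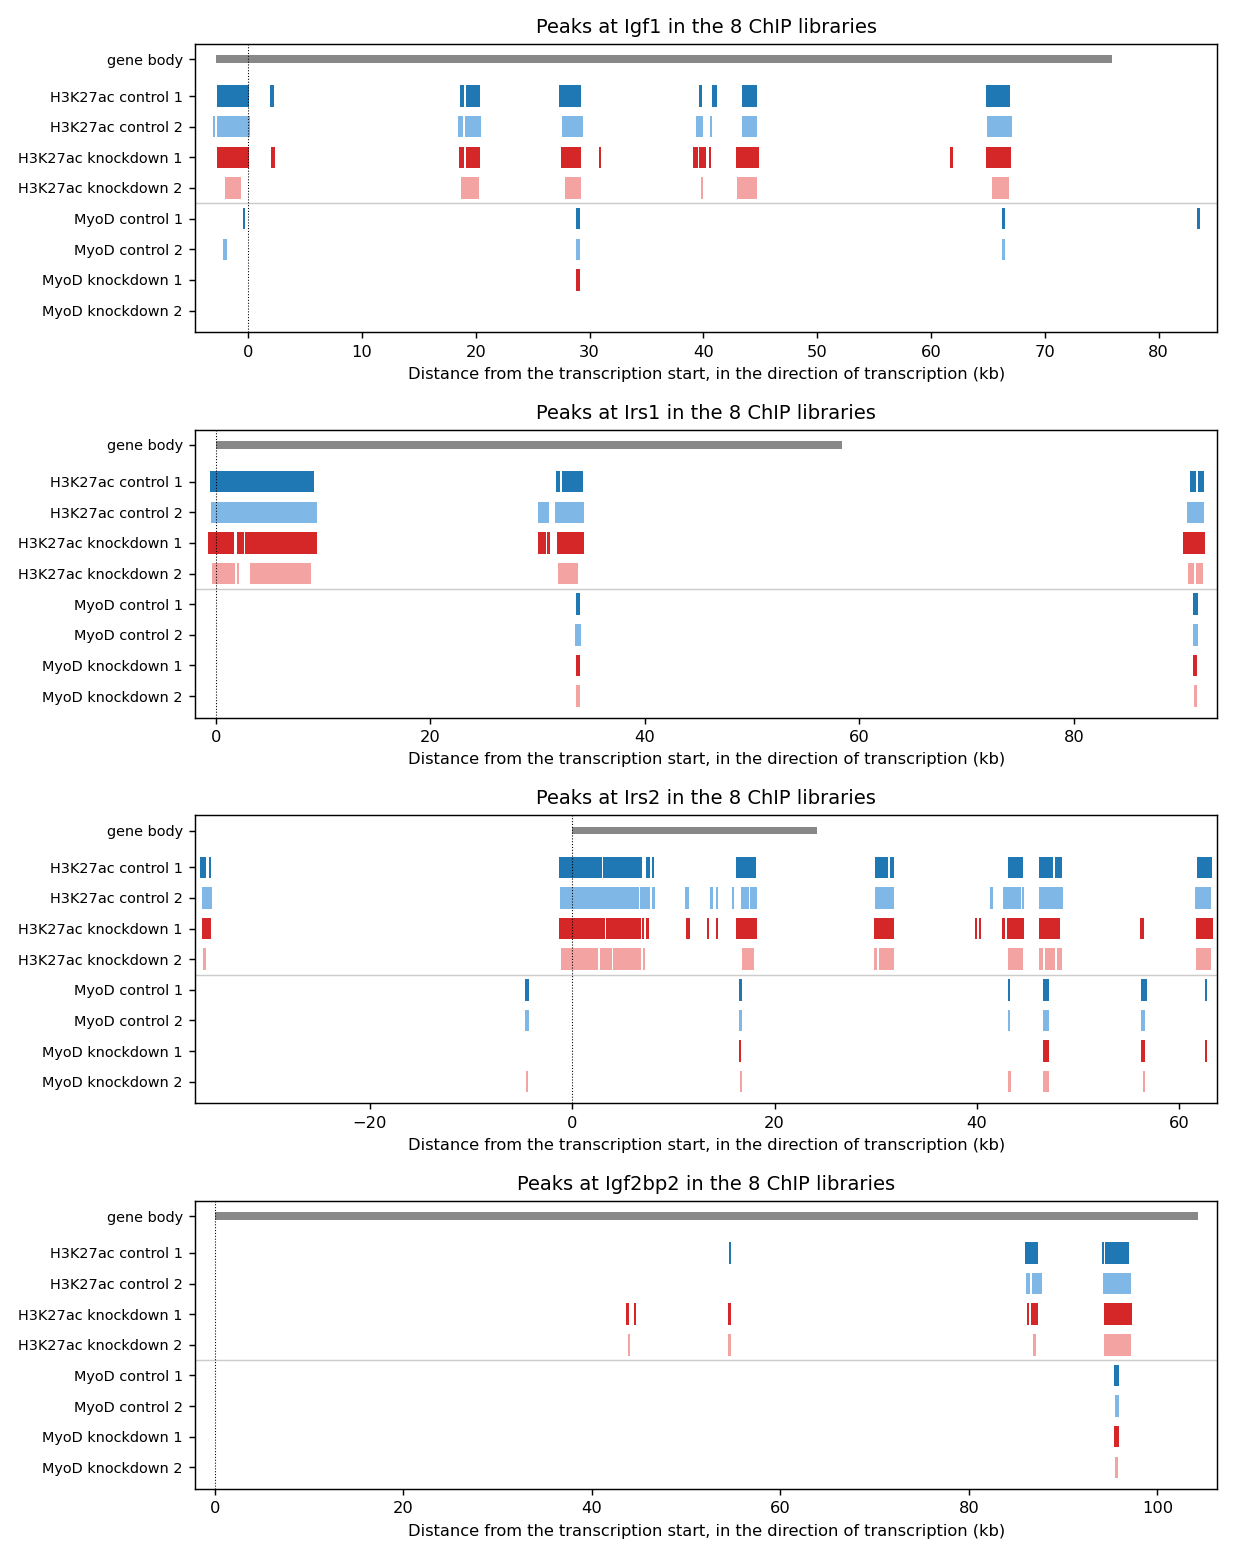
Peaks of each library (rows) at Igf1, Irs1, Irs2 and Igf2bp2 against distance from the transcription start in kb, with the gene body in grey and the start as a dotted line. At Igf1 the MyoD rows hold 4, 3, 1 and 0 peaks in control 1, control 2, knockdown 1 and knockdown 2, while the H3K27ac block at 64.8 kb is in each H3K27ac row.

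Igf2, the fetal ligand on chr7:142650768-142666816, had no peak of either antibody in its body. Its sole H3K27ac region and its sole MyoD region, both in all 4 libraries, lay 49.6 and 49.5 kb from the gene, just inside the 50 kb limit, and overlapped each other. They overlapped the noncoding gene Gm33148. The noncoding RNA gene H19 was at least as near to them as Igf2, to which they were given as the nearest protein-coding gene. The MyoD folds at chr7:142600298-142601281 were 10.6 and 7.95 in the controls against 5.84 and 7.45 in the knockdowns. The H3K27ac folds were 9.11, 9.47, 7.46 and 8.26 in the same order. Both controls thus stood above both knockdowns in each list. Just outside the limit, an H3K27ac region 52.3 kb from Igf1 had a peak in knockdown 1 alone (4.73), and a region 57.0 kb from Irs2 had folds of 16.2, 24.3, 14.6 and 17.0.

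Igf1r, the receptor gene on chr7:67952257-68233668, spans 281 kb and carried 40 H3K27ac and 9 MyoD regions. At least as many H3K27ac regions were found at 50 of 21631 protein-coding genes (0.231%), and at least as many MyoD regions at 239 (1.10%). Of the 40 H3K27ac regions 13 were in all 4 libraries. The region over the start, chr7:67950697-67954983, had folds of 14.5 and 13.0 in the controls against 14.9 and 11.9 in the knockdowns, so the groups overlapped. The highest H3K27ac values were at chr7:68019617-68023708, inside the gene 67.4 kb from the start, with 18.4 and 19.2 in the controls against 16.9 and 10.2 in the knockdowns. Both controls were higher there, with knockdown 2 the lowest. Both knockdowns were higher in the region 133 kb from the start, with 8.79 and 9.10 in the controls against 10.1 and 10.1.

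Peaks were found in 21 of the 40 Igf1r H3K27ac regions in control 1, 36 in control 2, 16 in knockdown 1 and 16 in knockdown 2. Control 2 stood apart, with 16 regions found in no other library. Both controls were above both knockdowns in this count. Over the 83 regions of the members the groups overlapped, with 48 and 69 in the controls against 54 and 40. They also overlapped in the whole lists, with 46207 and 52998 peaks used against 54008 and 39934. The share of all H3K27ac regions with a peak in each library was not computed. The order at Igf1r was not tested and is not read as a group difference. The 3 control-only regions were weak and close to shared ones. They had folds of 3.16 and 3.55 at chr7:67955058-67955618, 3.35 and 3.85 at chr7:67971355-67971628, and 3.16 and 3.03 at chr7:67971776-67972276. The gaps to the nearest region of all 4 libraries were 74, 695 and 47 bp. Joining peaks up to 1000 bp apart left 0 control-only regions at Igf1r. All 4 control-only regions of the members lay within 1000 bp of a region of all 4 libraries, as did 31.6% of all control-only regions.

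MyoD at Igf1r was shared by both groups at its strongest regions. Inside the gene 242 kb from the start, chr7:68194212-68194869 had folds of 19.2 and 18.9 in the controls against 20.3 and 15.3 in the knockdowns, with knockdown 1 the highest. Of 9909 MyoD regions of all 4 libraries, 500 (5.05%) had at least as high a mean fold. A second shared region, 200 kb from the start at chr7:68152374-68152866, had 11.6, 13.2, 12.9 and 11.4 in control 1, control 2, knockdown 1 and knockdown 2, and also lay in the noncoding gene Gm51487. The third, 0.645 kb downstream of the start inside the acetylated promoter region, had 7.93, 10.3, 7.74 and 4.22, with both controls above both knockdowns. Another peak, at −0.83 kb and thus upstream, was in control 2 alone (4.31). The other 5 regions were in 1 to 3 libraries. Of the 9 MyoD regions 8 lay within H3K27ac of all 4 libraries.

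**Figure D3:**
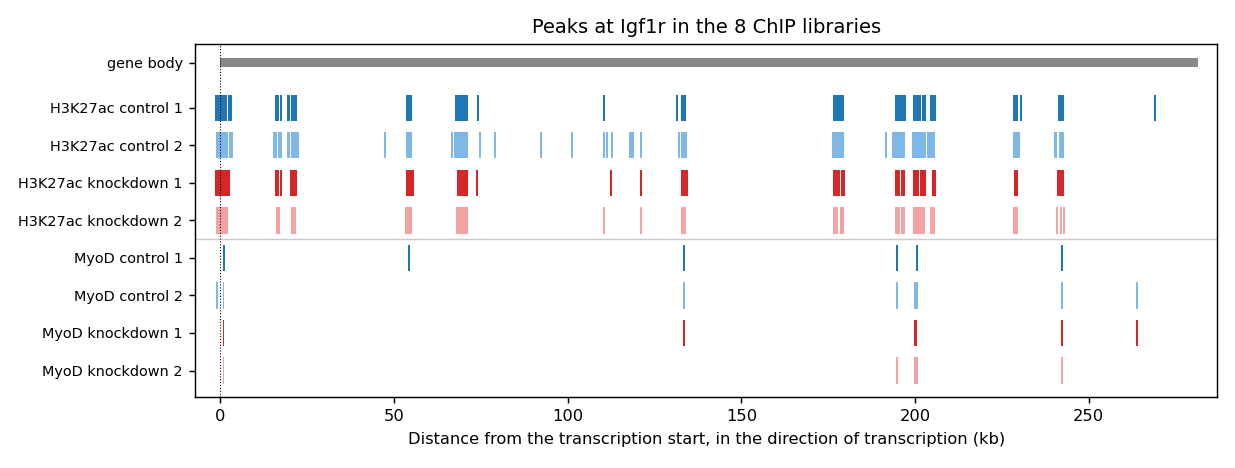
Peaks of each library (rows) along Igf1r against distance from the transcription start in kb, with the gene body in grey. Control 2 has H3K27ac peaks in 36 of the 40 regions against 21, 16 and 16 in the other libraries, and the MyoD peak at 242 kb is in each MyoD row.

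The adaptor genes Irs1 and Irs2 carried broad acetylation over their starts in both groups. At Irs1 (chr1:82233105-82291439) the region chr1:82282017-82292207 was 10191 bp wide, with folds of 11.7, 15.7, 15.3 and 13.4 in control 1, control 2, knockdown 1 and knockdown 2. At Irs2 (chr8:10984681-11008929) the region chr8:11001193-11010222 was 9030 bp wide, with 16.2, 14.7, 15.6 and 12.4. Among 26113 H3K27ac regions of all 4 libraries, 154 (0.590%) and 207 (0.793%) were at least as wide. The groups overlapped at both, and at Irs2, where the region also overlapped the noncoding gene 9530052E02Rik, knockdown 2 was the lowest.

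Irs1 had 2 MyoD regions, both in all 4 libraries and both within H3K27ac of all 4 libraries. The stronger, inside the gene at chr1:82257403-82257916, 33.5 kb from the start, had folds of 9.91 and 10.6 in the controls against 8.84 and 11.8 in the knockdowns. The other, past the gene's end 91.1 kb from the start, had 7.93, 5.38, 5.89 and 6.27. The groups overlapped at both. The H3K27ac region around the second had 7.62 and 9.17 in the controls against 9.64 and 9.30 in the knockdowns, so both knockdowns were higher.

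Irs2 had 17 H3K27ac regions, 7 in all 4 libraries, and 6 MyoD regions, 3 in all 4 libraries. Its strongest MyoD region, chr8:10952079-10952705, lay beyond the gene's end, 56.2 kb from the start, with folds of 12.2 and 10.4 in the controls against 10.3 and 6.27 in the knockdowns, so both controls were higher. Here H3K27ac was found in knockdown 1 alone (2.64), so of the members' 10 shared MyoD regions this was the one outside shared acetylation. The folds ran the other way in 3 shared H3K27ac regions of Irs2. Both knockdowns were higher at 46.1 kb (7.44 and 9.77 in the controls against 12.4 and 10.6), 29.9 kb (at most 7.62 in the controls against 9.82 and 8.54) and 16.2 kb (5.02 and 5.03 against 6.19 and 6.50). MyoD peaks were in 6, 5, 4 and 5 of the 6 regions in control 1, control 2, knockdown 1 and knockdown 2. The control-only H3K27ac region chr8:11000759-11001089 (folds 4.28 and 4.14) ended 103 bp from the broad start region. It was not control-only after peaks up to 1000 bp apart were joined.

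**Figure D4:**
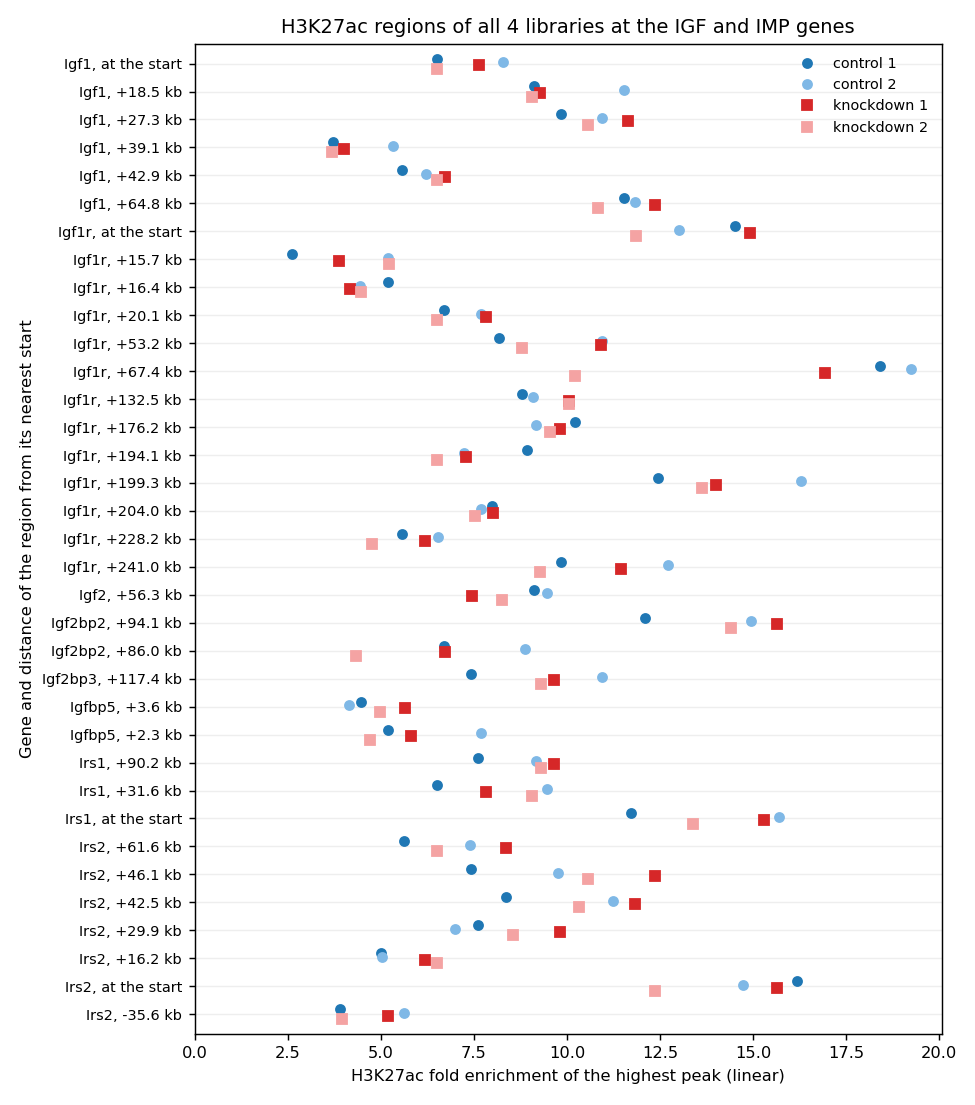
H3K27ac fold enrichment (linear axis) of the 35 regions found in all 4 libraries, labelled by gene and distance from the nearest start. Circles are the controls and squares the knockdowns; the highest values are those at Igf1r 67.4 kb from the start, 18.4 and 19.2 in the controls.

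The binding protein genes carried little. Igfbp5 (chr1:72858065-72874865), whose product binds IGFs in the matrix around muscle cells, had 3 H3K27ac regions and 1 MyoD region. The strongest H3K27ac region, chr1:72871475-72872578, lay 2.29 kb inside the gene, with folds of 5.21, 7.69, 5.82 and 4.72 in control 1, control 2, knockdown 1 and knockdown 2. In the other shared region, 3.63 kb inside, both knockdowns were higher (4.46 and 4.14 against 5.64 and 4.97). The MyoD region within the strongest, chr1:72872210-72872517, had 4.30, 5.63 and 5.16 and no peak in knockdown 2. The start itself had no peak of either antibody. Igfbp4 (chr11:99040005-99052655), an inhibitory IGF binding protein, had no region of either antibody: the nearest H3K27ac region was 15.2 kb away and was assigned to Top2a, and the nearest MyoD region was 75.0 kb away.

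Among the IMP genes, neither Igf2bp2 nor Igf2bp3 had acetylation at its start. Igf2bp2 (chr16:22059009-22163299) had H3K27ac and MyoD together far inside the gene. The MyoD region chr16:22067351-22067885, 95.4 kb from the start, had folds of 16.2 and 11.9 in the controls against 14.4 and 11.8 in the knockdowns. It lay in the H3K27ac region chr16:22066021-22069172, with 12.1 and 14.9 in the controls against 15.6 and 14.4 in the knockdowns. The groups overlapped for both antibodies. The nearest H3K27ac region of all 4 libraries was 86.0 kb from the start. The sole knockdown-only H3K27ac region of the members, chr16:22119225-22119723, was 43.6 kb from the Igf2bp2 start, with folds of 2.91 and 4.23, and 41929 bp from the nearest region of all 4 libraries; of all knockdown-only regions, 28.9% lay within 1000 bp of one. With equal numbers of peaks per list it was not knockdown-only.

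Igf2bp3 (chr6:49085218-49215469), an IMP known from fetal tissue, had 5 MyoD regions, 0 of them in all 4 libraries and 0 within H3K27ac. The 3 libraries that held the strongest one, chr6:49119809-49120176, gave 6.28 (control 1), 5.16 (knockdown 1) and 5.09 (knockdown 2). A region 0.977 kb downstream of the start was in control 2 (4.31) and knockdown 2 (5.49). Libraries of both groups were thus among those with a peak at each of these places, and 2, 4, 3 and 2 of the 5 regions had one in control 1, control 2, knockdown 1 and knockdown 2. The one H3K27ac region of all 4 libraries, chr6:49095900-49097529, with 7.44, 10.9, 9.64 and 9.30, lay 117 kb from the start. It and 3 of the 5 MyoD regions, the strongest among them, also overlapped the gene Malsu1. Igf2bp1 (chr11:95957163-96005944) had no H3K27ac region, and its MyoD region, inside the gene, was in control 1 alone (7.27); the nearest H3K27ac region was 28.5 kb away and was assigned to Snf8.

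**Figure D5:**
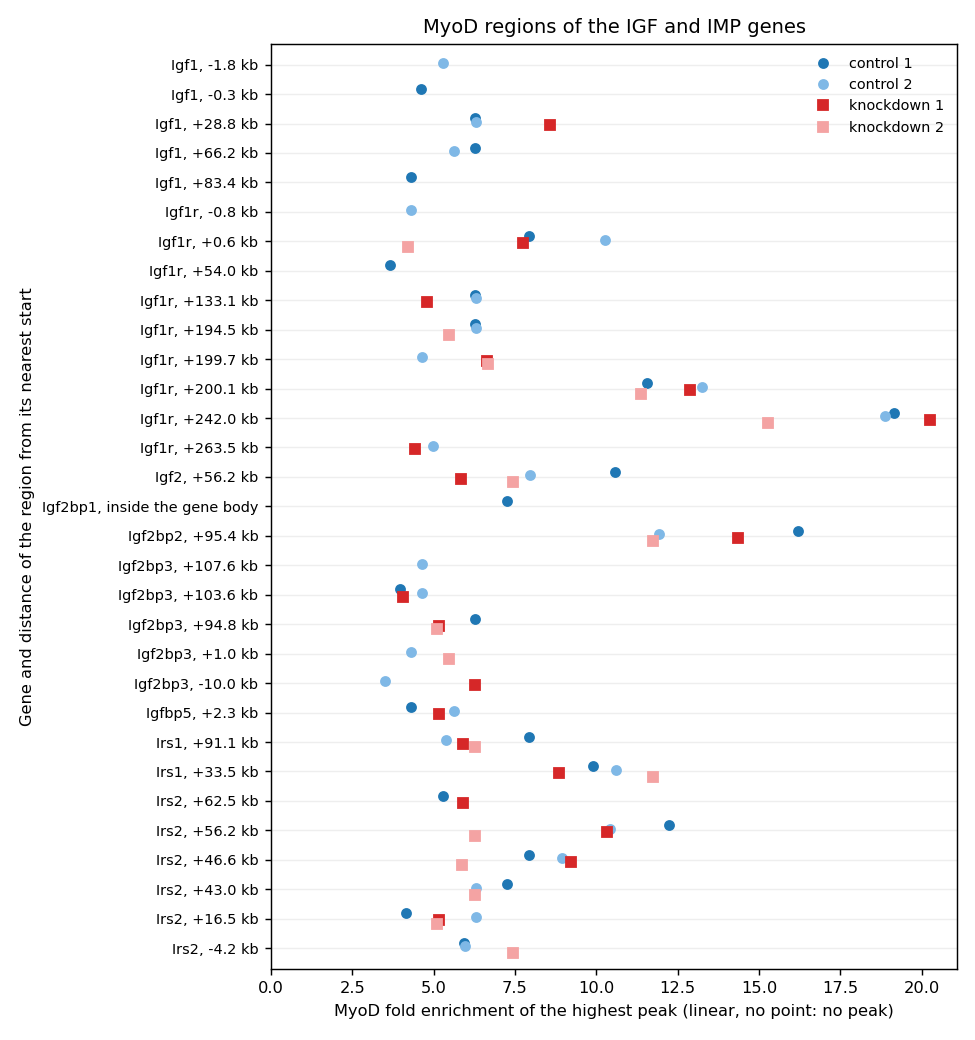
MyoD fold enrichment (linear axis) in each library of the 31 regions, labelled by gene and distance from the start; a missing symbol means no peak. Igf1 regions have no knockdown 2 symbol, and the highest values are those at Igf1r 242 kb from the start, 15.3 to 20.3.

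MyoD and acetylation met at most of the members' MyoD regions. Of the 31, 22 (71.0%) overlapped an H3K27ac region, beside 69.8% of all MyoD regions. In H3K27ac of all 4 libraries lay 21 of the 31 (67.7%), beside 56.2% of all MyoD regions. Of the 10 in all 4 libraries, 9 did, beside 76.4% of all such regions. Of the other 21, 12 (57.1%) did. Over all MyoD regions, 13644 of 24264 did, and 7571 of these were among the 9909 in all 4 libraries. The share of the rest was not computed. The replicate number pairs libraries of the 2 antibodies only by name. By library, 18 of 24, 18 of 25, 15 of 19 and 12 of 16 members' MyoD regions overlapped an H3K27ac peak of the same group and number. These shares ran from 72% to 78.9% with the groups overlapping, beside 69.3, 70.8, 76.2 and 63.4% of all MyoD peaks of control 1, control 2, knockdown 1 and knockdown 2. In the other direction, 18 of the 35 H3K27ac regions of all 4 libraries held a MyoD region (51.4%, beside 44.7% of all). Of the remaining 48, 1 did, again with no share over all regions computed.

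Other genes of the pathway were read from 3 lists. Among all protein-coding genes, 64.4% had at least 1 H3K27ac region. Of 14 other IGF ligands, receptors and binding proteins, 9 had H3K27ac, with 53 regions. Of these, 21 (39.6%, beside 43.6% of all H3K27ac regions) were in all 4 libraries. Regions specific to a group numbered 0, beside 1.46% control-only and 0.769% knockdown-only of all. This 0 moved with the libraries used: knockdown-only regions numbered 11 without knockdown 2 and 2 with equal numbers of peaks, and control-only ones 5 without knockdown 1 and 4 without control 1. The highest shared folds were at Igf2r, the receptor that clears IGF2 (15.8, 21.6, 17.8 and 18.2 in control 1, control 2, knockdown 1 and knockdown 2), and at Stc2, an inhibitor of IGF binding protein cleavage (15.8, 15.6, 18.9 and 12.1). Igf2r and Stc2 also had the highest shared MyoD folds of the list, 23.1 to 27.4 and 14.5 to 16.9. Of its 28 MyoD regions, 9 (32.1%) were in all 4 libraries, beside 40.8% of all MyoD regions. Of the rest, 4 were control-only (14.3%, beside 4.55% of all) and 0 knockdown-only, beside 0.729% of all. The 4 became 2 with a merge gap of 1000 bp, with a −log10 q of at least 5 or with equal numbers of peaks, and 9 without knockdown 1. The control-only ones were at Htra1, a protease of IGF binding proteins (3.30 and 3.19, and 6.28 and 6.29), Igfbp2 (4.96 and 6.95) and Igfbp3 (4.63 and 4.64).

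Of 27 genes of the PI3K, Akt, mTOR and Foxo arm, 27 had H3K27ac, with 280 regions. Of these, 93 (33.2%, beside 43.6% of all) were in all 4 libraries. There were 6 control-only regions (2.14%, beside 1.46% of all) and 4 knockdown-only ones (beside 0.769% of all). The 6 became 56 without control 1, 26 without control 2, 25 without knockdown 1 and 1 with the gap of 1000 bp. The 4 became 60 without knockdown 2, and with equal numbers of peaks the order turned, to 3 control-only and 7 knockdown-only. Control-only regions were at Akt2, Foxo3 (2 regions), Pik3ca, Pik3r1 and Rptor, with folds of 2.79 to 5.33. Knockdown-only ones were at Grb2, Pik3ca, Ptpn1 and Rptor, with 2.91 to 4.72. The highest shared folds were at Eif4ebp1, a repressor of translation (22.1 to 27.1), and Gsk3b, a kinase inhibited by Akt (18.0 to 22.8). Of 77 MyoD regions 35 (45.5%) were in all 4 libraries, beside 40.8% of all MyoD regions. There were 4 control-only regions (5.19%, beside 4.55% of all) and 1 knockdown-only region (beside 0.729% of all). This order also turned with equal numbers, to 1 against 4, and without knockdown 2, to 4 against 8. The 4 control-only ones were at the kinases Akt1 (4.82 and 4.64) and Akt2 (5.29 and 7.29), the lipid phosphatase gene Inppl1 (5.29 and 5.30) and Rptor, a subunit of mTORC1 (5.95 and 7.29), and the 1 knockdown-only region was also at Rptor (5.89 and 5.38). The strongest shared MyoD regions were at Rptor (15.3 to 25.8) and Inppl1 (16.5 to 23.5).

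Of 12 genes of IMP-bound transcripts and the Lin28 axis, 10 had H3K27ac, with 73 regions. Of these, 34 (46.6%, beside 43.6% of all) were in all 4 libraries and 0 were control-only, beside 1.46% of all. The 1 knockdown-only region (beside 0.769% of all) was at Cd44, the hyaluronan receptor (3.27 and 3.70). With a gap of 1000 bp there were 1 control-only and 0 knockdown-only regions, and with the stricter q or equal numbers 0 of either. Without control 1 there were 9 control-only, without control 2 there were 7, and without knockdown 2 there were 9 knockdown-only. The highest shared folds were at Myc (14.9 to 20.7) and Actb (12.6 to 22.4). Of 23 MyoD regions 13 (56.5%, beside 40.8% of all) were in all 4 libraries. The 1 control-only region (4.35%, beside 4.55% of all) was near Mycn (6.28 and 5.50). Control-only MyoD regions numbered 5 without control 2, and 3 were knockdown-only without knockdown 2. The strongest shared MyoD regions were at Cd44 (16.8 to 21.5) and Hmga2 (14.5 to 24.3).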

How the data were processed

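ChIP-seq peak lists of 8 libraries, 2 control and 2 knockdown for each of H3K27ac and MyoD, were used, grouped by their labels. Peaks were called per library, and the submitters' processing notes name MACS2 2.1.1, Bowtie2 2.3.2, bedtools 2.26.0, SAMtools 1.3, Picard 2.9.2 and mm10, with no options in the sources used here. The deposited lists give for each peak a fold enrichment over background, a linear ratio, with −log10 of its p-value and q-value and a whole-number score, all from the authors' peak caller. Summit positions are the authors' offsets from the peak start. No deposited peak had a −log10 q under 1.30. Read counts are not part of these lists, and so neither depth nor the precision it gives is known.

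Peaks on chromosomes 1 to 19 and X were merged per antibody at a gap of 0 bp, with 1 shared base counting as presence, in Python 3.11.15 with pandas 2.3.3 and numpy 2.4.6, and plotted with matplotlib 3.10.9. The scripts were tested on simulated data. Distances are from RefSeq starts and positive downstream; for Igf2, with 4 starts, from the nearest. The gene table gives no exons or untranslated regions. The members and the lists were chosen with earlier results of these data known. Regions were named by rule: for each gene and antibody the highest mean fold, those within 1 kb of a start, and those of 1 group only; other regions were chosen after their values were seen. Alternatives were a merge gap of 1000 bp, a −log10 q of at least 5, equal numbers of peaks per list, a 10 kb window, a 25% cover for presence, and leaving out each library.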

Additional observations from a re-analysis of the deposited data

How the results depend on the processing

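No paired analysis was possible because the results are counts of regions and fold values that come from no test. Of 81 recomputed counts over the members, 59 stayed within 1.5 times the reported value and 22 did not. The 83 H3K27ac regions became 52 with a merge gap of 1000 bp, 47 with a −log10 q of at least 5 and 53 with equal numbers of peaks per list. Under these 3 settings the 4 control-only H3K27ac regions became 0, 1 and 2. The 1 control-only MyoD region became 2 with the stricter q and 2 with equal numbers, and the 0 knockdown-only MyoD regions became 1 and 1. The 10 MyoD regions of all 4 libraries became 6 with a 10 kb window. Leaving out 1 library gave 5 to 26 control-only H3K27ac regions, with 26 without control 1 and 8 without control 2, and 1 to 8 knockdown-only ones, with 8 without knockdown 2, 2 without control 1 and 3 without control 2. For MyoD it gave 4 to 5 control-only regions, 4 without control 1 or knockdown 2 and 5 without control 2 or knockdown 1, and 0 to 1 knockdown-only ones, with 1 without either control. A group then rests on 1 library, which by construction asks for fewer peaks. The control-only MyoD region of Igf1 stayed at 1 under each of the 5 settings other than leaving out a library. Depth is unknown, so a missing peak does not show that binding or acetylation was absent, and knockdown 2, with the shortest lists, cannot be told apart from weaker detection.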
